A study of Vitis vinifera with 4 samples.

Results

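DNA affinity purification sequencing (DAP-seq) of NAC61, a grapevine transcription factor of the NAC family, gave 8558 binding events, and 419 of them are described here because they lay deep inside a gene. An event was called deep when its summit fell between the annotated start and end of the gene it was assigned to and more than 1000 bp downstream of that gene's transcription start site (TSS). Gene coordinates were used for 1879 of the events, assigned to 1477 genes whose annotations run in alphabetical order from the start of the list to the letter D, so every share below refers to these listed events. The HALO-NAC61 group comprised 2 libraries in which the protein, VIT_08s0007g07640, carried a HALO tag, and the GST-HALO control group comprised 2 libraries in which the tag was used without NAC61. In both groups the protein was translated in rabbit reticulocyte lysate and incubated with sheared DNA that had been extracted from cv. 'Syrah' young leaves. The DNA carried no chromatin proteins, and the protein was not made in grapevine cells, so the events show which fragments NAC61 retained in vitro and not where it binds in a berry or a leaf. The event list pooled both HALO-NAC61 libraries, so no value per library and no SD can be given. Events of one list are not replicates, and no p-value was computed across them. Intervals given here are 95% intervals that cover counting error only.

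NAC proteins form a large plant-specific family that binds DNA as dimers through a conserved N-terminal domain, and many members act in senescence, fruit ripening and stress responses. Their known sites share a short CACG or closely related core. Binding close to a TSS is the arrangement usually linked to control of the gene, whereas sites far inside a transcribed region may fall in introns, exons or repeats. Which of these the deep events occupied was not analysed here. All positions are those of the PN40024 12X.v2 assembly.

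The peak caller writes beside an event the k-mer, a short word enriched at the events, that it found there. These words are shown because they are the only direct view of the DNA at the deep events. They are written 5′ to 3′ as given, in lower case, with capitals for the first of 4 cores found on either strand. The cores were searched in a fixed order, first GCGTG and then ACGTG, followed by GCTTG and last by GCGTA. The letter n stands for any base, and words with none of the cores stay in lower case. Shown are the 5 most frequent words of deep events and the most frequent word with the second and with the last of these cores.
most frequent word, 17 deep events: attGCTTGt
any-base word, 10 deep events: tgncgtgt
word with the first core, 9 deep events: tgGCGTGt
another, 8 deep events: gttGCGTG
another, 7 deep events: taGCGTGt
word with the second core, 6 deep events: tgACGTGtt
word with the last core, 4 deep events: attGCGTA
Read on the opposite strand, the GCGTG core is CACGC and the ACGTG core is CACGT. The deep events carried 43 different words of the 58 found over all listed events, between 7 and 11 bases long.

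A k-mer was given for 134 of the 419 deep events (32.0%, 27.7 to 36.6), against 617 of the 1460 other listed events (42.3%), with 40.0% over all 1879 listed events. The difference was -10.3 percentage points (-15.3 to -5.03), larger over all genes than counting error. At matched gene length it was not uniform. In genes of up to 5 kb, 61 of 134 deep events had a k-mer (45.5%), against 407 of 964 other listed events (42.2%; difference 3.30, -5.47 to 12.3). In genes of 5 to 10 kb the shares were 38.0% of 100 deep and 47.6% of 319 other events (difference -9.65, -20.1 to 1.54), and in longer genes 18.9% of 185 and 32.8% of 177 (difference -13.8, -22.6 to -4.84). The deficit of deep events was thus separated from 0 only in genes longer than 10 kb. Set against single positions, the share of deep events was 23.3 points below that of events up to 1 kb upstream of a TSS (55.2%; difference -23.3, -30.4 to -15.9). It was 15.3 points below that of events in the first 1 kb of the gene (47.3%; difference -15.3, -22.6 to -7.90) and 10.1 points below that of events 1 to 5 kb upstream (42.1%; difference -10.1, -16.9 to -3.24). Deep events were not separated from events up to 3 kb downstream of the gene (37.7%; difference -5.73, -14.3 to 2.52) or from events farther away (31.1%; difference 0.93, -5.52 to 7.33). These contrasts by position were not matched for gene length. In genes of up to 5 kb the deep share of 45.5% lay below those up to 1 kb upstream (55.5%) and in the first 1 kb (49.7%). It lay above those 1 to 5 kb upstream (42.3%), downstream (36.1%) and farther away (30.6%). In genes of 5 to 10 kb (38.0%) and longer than 10 kb (18.9%) the deep share was the lowest, with 38.3 and 22.8% farther away.

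Deep events were not uniform in this respect. Between 1 and 2 kb from the TSS, 63 of 133 had a k-mer (47.4%, 39.1 to 55.8), close to the 47.3% of events in the first 1 kb. The share was 31.2% at 2 to 5 kb (45 of 144, 24.2 to 39.2) and 24.7% at 5 to 10 kb (20 of 81, 16.6 to 35.1). Beyond 10 kb only 6 of 61 had one (9.84%, 4.59 to 19.8). The share beyond 10 kb was 37.5 points below that at 1 to 2 kb (difference -37.5, -47.5 to -24.5). Where significance, the −log10 q-value of an event against the control, was 5 or more, 1 of 46 had one beyond 10 kb and 40 of 93 at 1 to 2 kb. The signal did not follow the same order, with medians of 94.0, 92.3, 86.0 and 96.9 reads from the nearest to the farthest of these 4 classes.

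**Figure D1:**
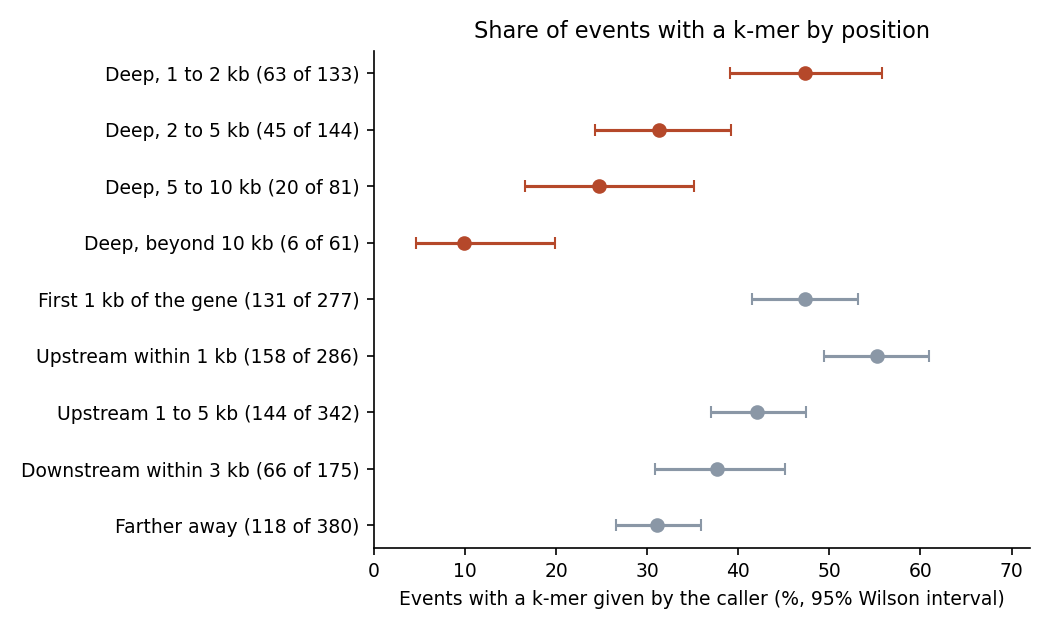
Share of events with a k-mer (%, x axis) for deep events by distance from the TSS (red) and for the other position classes (grey). Points are shares, bars are 95% Wilson intervals, and the counts stand beside each class. The share is 47.4% at 1 to 2 kb and 9.84% beyond 10 kb, below every class outside the deep events.

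Gene length moved with this order, since only long genes reach far from their TSS, and the median length of the genes of deep events was 3.32, 7.95, 12.7 and 33.2 kb in the 4 classes. In genes of up to 5 kb, 61 of 134 deep events had a k-mer (45.5%, 37.3 to 54.0), against 35 of 185 in genes longer than 10 kb (18.9%, 13.9 to 25.2). Within the genes longer than 10 kb, the share was 18.8% at 1 to 2 kb (3 of 16), 28.6% at 2 to 5 kb (14 of 49), 20.3% at 5 to 10 kb (12 of 59) and 9.84% beyond 10 kb. The difference between the extremes was then -8.91 points (-33.7 to 6.83), which counting error does not separate from 0. Outside the deep events, shares were also lower in genes longer than 10 kb than in genes of up to 5 kb for events in the first 1 kb (31.6 and 49.7%), 1 to 5 kb upstream (29.3 and 42.3%), farther away (22.8 and 30.6%) and, by little, downstream (33.3 and 36.1%). They were alike in value up to 1 kb upstream of a TSS (54.3 and 55.5%). Among deep events in genes of 5 to 10 kb, the share was 55.2% at 1 to 2 kb (16 of 29). It was 28.6% at 2 to 5 kb (14 of 49) and 36.4% at 5 to 10 kb (8 of 22). In genes of up to 5 kb, 44 of 88 had a k-mer at 1 to 2 kb and 17 of 46 at 2 to 5 kb (37.0%). The share was thus lower at 2 to 5 kb than at 1 to 2 kb in both ranges, but not in genes longer than 10 kb. No interval was computed for these differences, and the parts of distance and gene length were not tested.

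The words themselves also differed in one respect. Of deep k-mers, 72 of 134 were assigned to GCGTG (53.7%, 45.3 to 62.0), against 373 of 617 in other listed events (60.5%). ACGTG was assigned to 17 deep k-mers (12.7%), against 102 others (16.5%), and GCGTA in 10 (7.46%), against 54 (8.75%). None of these 3 differences exceeded its counting interval. GCTTG was assigned to 19 deep k-mers (14.2%, 9.27 to 21.1), against 40 of 617 others (6.48%), a difference of 7.70 points (2.31 to 14.8). Counting also the words that hold GCTTG but were assigned to GCGTG, such as gcttGCGTG, the values were 21 deep (15.7%), against 51 others (8.27%; difference 7.41, 1.67 to 14.8). Of the GCTTG words, GCTTGcgta also holds GCGTA, sharing a base with it, and it occurred at only 2 deep events.

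Most of the GCTTG words were attGCTTGt, which made up 12.7% of deep k-mers (17 of 134, 8.07 to 19.4), against 5.19% of the k-mers of other listed events (32 of 617, 3.70 to 7.23). The word made up 10.2% of the k-mers of events farther away from their assigned gene and 3.16% of those up to 1 kb upstream of its TSS (5 of 158). It was thus not limited to deep events, and whether those events lay in another gene was not examined. The 17 deep events with it lay in 17 genes on 12 chromosomes, at 1152 bp to 26.9 kb from the TSS. Their signals ran between 59.0 and 151 reads with a median of 77.0, below the median of 92.0 over all deep events. Of the 17, 10 reached a significance of 5, beside 69.5% of all deep events. The strongest stood in VIT_14s0006g01740, which encodes an AAR2 protein, at 151 reads and 26.9 kb into a gene of 43.0 kb. The others included VIT_01s0011g01680 for a chaperonin GroEL (120 reads), VIT_12s0055g00490 for the plastid division protein ARC5 (106 reads) and VIT_12s0059g01650 for the plastid division site determinant MinD (74.0 reads).

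The deep events lay between 1007 bp and 47.9 kb from the TSS, with a median of 3188 bp and quartiles of 1746 and 6802 bp. They made up 60.2% of the 696 listed events inside a gene (56.5 to 63.8) and 22.3% of all listed events (20.5 to 24.2). The counts were 133 events at 1 to 2 kb, 144 at 2 to 5 kb, 81 at 5 to 10 kb and 61 beyond 10 kb, in classes of unequal width. Fewer genes reach the greater distances, so inside events were also counted per gene. Among listed genes long enough to hold the whole window, there were 9.94 inside events per 100 genes at 1 to 2 kb, 6.16 at 2 to 3 kb, 5.92 at 3 to 4 kb, 4.54 at 4 to 5 kb and 4.21 at 5 to 6 kb, against 18.6 in the first 1 kb. Every listed gene has at least 1 event by construction, so these are not densities over the genome. The study assigned each event to its closest gene model, so events far inside a gene may have been given to a neighbour. How much of the decrease this makes up was not tested.

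**Figure D2:**
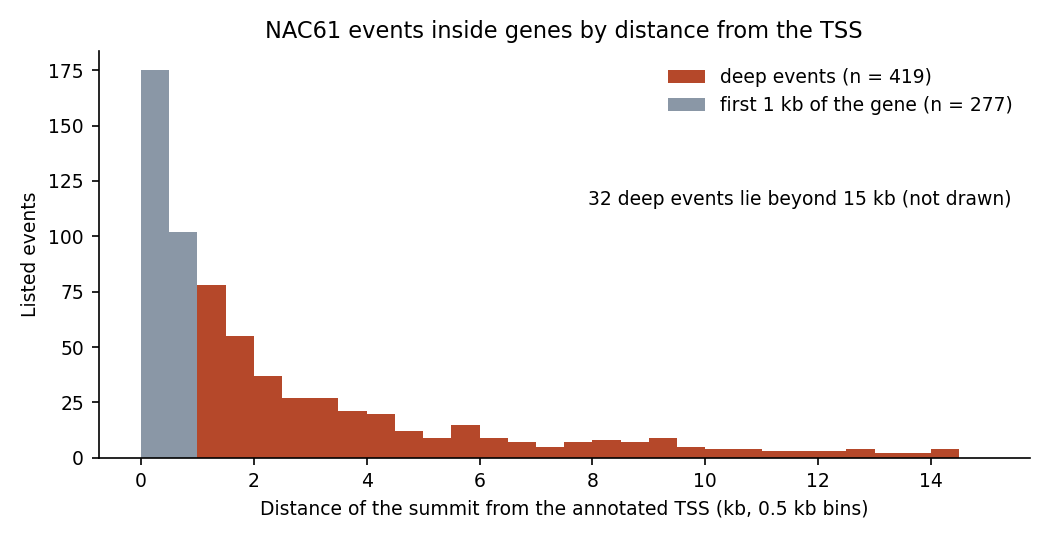
Number of listed events inside genes (y axis) by distance of the summit from the annotated TSS in 0.5 kb bins (x axis), deep events in red and events of the first 1 kb in grey. Counts decrease with distance, and 32 deep events beyond 15 kb are not drawn.

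When the gene beyond its first 1000 bp was divided into 4 stretches of equal length, 166 deep events stood in the stretch nearest the TSS (39.6%), 115 in the next (27.4%), 79 in the one after (18.9%) and 59 in the last (14.1%). Of the deep events, 50 had their summit within 500 bp of the gene end, and 11 within 100 bp. The limit set by assignment to the closest gene model applies to these counts too. Genes with a deep event had a median length of 8.07 kb, against 3.09 kb for the 1102 listed genes without one. The rule favours this, because only the stretch beyond the first 1000 bp can hold a deep event, and it grows with gene length. In genes longer than 10 kb there were 185 deep events in 155 genes, and in genes longer than 50 kb there were 29 in 20 genes. No deep summit lay inside another listed gene or within 1000 bp of the TSS of another listed gene. Assignment to the closest gene model makes such cases unlikely from the outset, and unlisted genes were not checked. Nothing therefore follows from their absence. The deep events were spread over all chromosomes, making up between 12.2% of listed events on chromosome 10 (9 of 74) and 30.1% on chromosome 12 (25 of 83).

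The extremes of the range show what the rule admits. The event farthest from a TSS stood 47.9 kb into VIT_09s0018g00310 (chr9:16188269-16274290, minus strand), which encodes the ABC transporter ABCC7, and had 61.0 reads. The next were in VIT_05s0020g00410, a C2 domain protein gene of 107 kb (46.5 kb from the TSS, 92.0 reads), and in VIT_07s0005g04510, a DENN domain protein gene of 77.7 kb (40.2 kb, 39.8 reads). The significance of all 3 was below 5, at 2.27, 4.16 and 2.01. At the near edge, the members closest to the limit lay at 1007 bp in VIT_12s0059g01000 for a cellulose synthase-like protein CSLB04 (88.0 reads), at 1010 bp in VIT_02s0025g01760 for CSLG3 (138 reads) and at 1024 bp in VIT_03s0017g00610 for a resistance protein (123 reads). Just outside it were events at 999 bp in VIT_14s0108g00730 (92.0 reads), at 993 bp in VIT_18s0001g10690 for BKI1, an inhibitor of the brassinosteroid receptor (118 reads), and at 982 bp in VIT_01s0011g06570 for a fasciclin-like protein (122 reads). Signals on the 2 sides of the limit overlapped.

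Signal counts the HALO-NAC61 reads given to an event by the caller. Deep events had a median signal of 92.0 reads (89.0 to 96.7) with quartiles of 75.0 and 112, against a median of 88.0 reads in other listed events and 89.2 in the whole list. Their median significance was 7.29 (6.55 to 8.09), against 7.11 in other listed events and 7.15 in the whole list. A significance of 5 was reached by 291 of 419 deep events (69.5%, 64.9 to 73.7), beside 66.9% of the whole list. Among the 600 highest signals of the whole list, which hold 7.01% of it, stood 28 deep events (6.68%), whereas 34 of the 277 events in the first 1 kb did so (12.3%). The intervals around the 2 deep medians and around the share at a significance of 5 all included the value of the whole list.

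**Figure D3:**
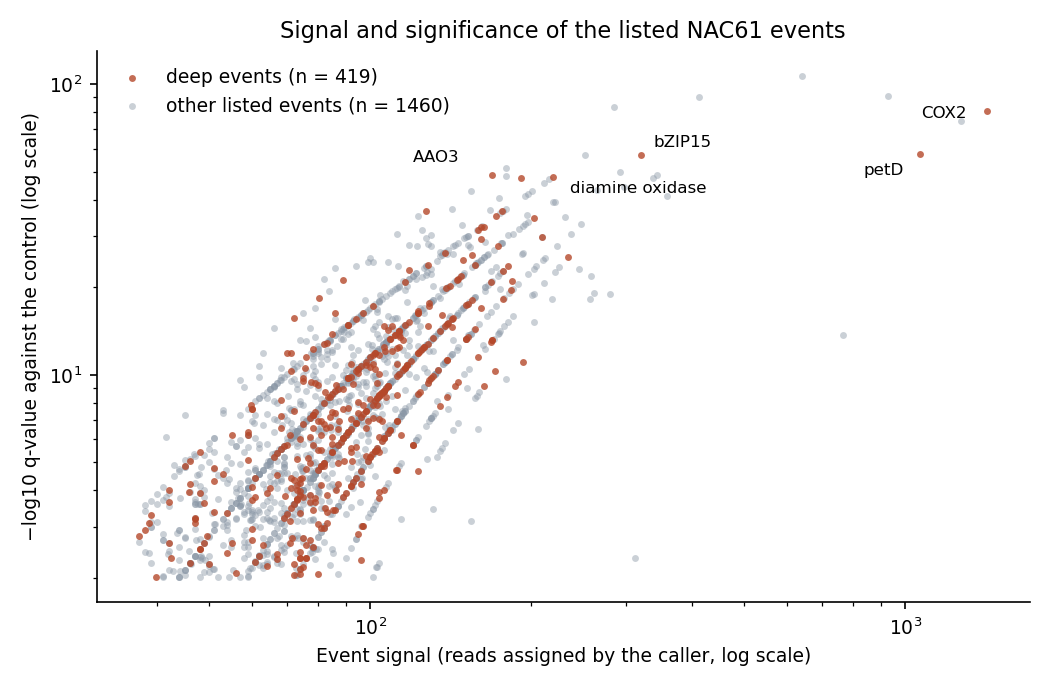
Signal in reads (x axis, log scale) against the −log10 q-value (y axis, log scale) for the 419 deep events (red) and the 1460 other listed events (grey), with 5 deep events named. The deep events overlap with the others, and COX2 and petD, at 1423 and 1063 reads, stand apart from the remaining deep events.

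Signal showed no single direction between deep events with and without a k-mer. Deep events with a k-mer had a median of 87.2 reads, against 94.0 reads in deep events without one, but 12 of 134 (8.96%) were among the 600 highest signals, against 16 of 285 without one (5.61%). Where significance was 20 or more, 7 of 33 deep events had a k-mer (21.2%, 10.7 to 37.8), against 67 of 150 other listed events of that rank (44.7%), a difference of -23.4 points (-36.7 to -5.20). In the 3 lower ranges of significance, 2 to 5, 5 to 10 and 10 to 20, the differences were -9.21, -7.39 and -9.69 points, and each of these intervals included 0. The differences by range of significance were not matched for gene length.

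The 7 strongly significant deep events with a k-mer are the ones in which a word and a clear enrichment coincide. The highest stood in VIT_18s0041g02430 for abscisic aldehyde oxidase AAO3, with taGCGTGt and a significance of 48.7 (chr18:30982874-30994018, minus strand). VIT_11s0016g01970, for the calmodulin-binding protein IQD6, had attGCGTGtaa and 35.2 (chr11:1596759-1599916, minus strand). VIT_02s0025g05120, for the ACT domain protein ACR8, had gttGCGTG and 32.3 (chr2:4410051-4413324, plus strand). All 3 words hold the same GCGTG core. The remaining 4 were VIT_11s0016g02340 for a cytidine deaminase (gattGCGTGt, 25.9), VIT_05s0020g01090 for the bZIP factor bZIP15 (ggttGCGTG, 25.4), VIT_13s0019g00660 for a dimethylaniline monooxygenase (taGCGTGt, 23.9) and VIT_05s0062g00770 for a beta-1,3-glucanase (gcttGCGTG, 22.8). Thus all 7 carried GCGTG, the core that 72 of all 134 deep k-mers held.

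The 2 strongest deep events were of a separate kind. VIT_00s0438g00010, annotated as cytochrome c oxidase subunit 2 (COX2), had 1423 reads and a significance of 80.5, and VIT_00s0332g00050, annotated as petD, subunit IV of the cytochrome b6/f complex, had 1063 reads and 57.6. COX2 is a respiratory subunit usually encoded in mitochondrial DNA, and petD a photosynthetic subunit usually encoded in plastid DNA. Both genes lay on the unanchored sequence of the assembly, which carried 169 events of the whole list but 37 of its 59 events with at least 400 reads. Whether reads from organelle DNA contributed to them was not tested. Neither event had a k-mer. Without the 3 deep events on that sequence the median signal was unchanged at 92.0 reads and the highest was 321 reads.

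On the anchored chromosomes the strongest deep events were in VIT_05s0020g01090 (chr5:2860048-2863747, plus strand), which encodes the bZIP transcription factor bZIP15. They stood 1093 and 1633 bp from the TSS, with 321 and 234 reads and significances of 57.0 and 25.4. A significance of 48.1 and 220 reads were found in VIT_05s0020g03310 (chr5:5082857-5085083), for diamine oxidase, an enzyme that degrades polyamines. CYP704A2, VIT_16s0022g02140, followed with 209 reads, and VIT_01s0011g02860 for CHUP1, which in Arabidopsis positions chloroplasts along actin, with 202 reads. None of the 3 last events had a k-mer.

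Below these, signals were closely spaced. The aldo/keto reductase VIT_05s0062g01010 had 193 reads with atgACGTGt, but a significance of only 11.1, whereas VIT_14s0171g00270 for subunit 3 of the COP9 signalosome, a regulator of ubiquitin ligases, had 192 reads and 47.4. Signal and significance therefore did not rank these 2 events alike. The resistance protein RGH1, VIT_13s0064g00470, had 184 reads, and VIT_08s0040g01920 for the receptor-like kinase Crinkly4, known from maize epidermis, had 183. VIT_04s0023g01020, for the homeodomain protein BLH2, which in Arabidopsis restrains growth of the leaf margin, had 181 reads. VIT_01s0011g03290 for the malate channel ALMT9 (tgACGTGtt) and the beta-1,3-glucanase VIT_05s0062g00770 had 177 reads each, and VIT_12s0035g01860 for ClpX1, an ATPase subunit of the Clp protease, had 176.

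The remaining events of the 20 highest signals lay between 169 and 173 reads. They stood in VIT_02s0025g00650 for an AAA-type ATPase (173 reads), VIT_11s0016g01970 for IQD6 (172 reads) and VIT_08s0040g02830 for the endoplasmic reticulum calcium pump ECA1 (171 reads, cttGCGTGt). At 169 reads were AAO3, VIT_01s0137g00410 for CYP86A2, whose Arabidopsis counterpart makes cutin monomers (atgACGTGtt), and VIT_02s0087g00930 for CCD4b, a carotenoid cleavage dioxygenase (ataGCGTGt). Of the 21 events down to 169 reads, those with a word held either GCGTG or ACGTG.

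Of the 375 genes with a deep event, 335 had 1, 36 had 2 and 4 had 3. Of these genes, 14 also had a listed event up to 1 kb upstream of the TSS (3.73%), beside 268 of all 1477 listed genes (18.1%), but a gene with a deep event is listed without needing another. A further 33 had one 1 to 5 kb upstream and 24 had one in the first 1 kb. In 284 genes the deep events were the only listed events. The 44 spacings between neighbouring deep events of a gene had a median of 2424 bp and ran between 104 bp and 40.8 kb, with 12 of at most 500 bp. Counting events of any kind, 26 deep events had another within 500 bp (6.21%), beside 5.89% of the whole list. Close events of one pooled list share reads, since the caller divides reads between them, and their signals are not independent.

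The 4 genes with 3 deep events differed in layout. In VIT_18s0041g02430, for AAO3, the last enzyme of abscisic acid (ABA) synthesis, events at 3136, 3445 and 4044 bp from the TSS had 59.8, 127 and 169 reads, with significances of 7.89, 36.7 and 48.7. The first carried gttGCGTGt, the last taGCGTGt and the middle one no k-mer. All 3 thus lay within 1 kb of each other in a gene of 11.1 kb. In VIT_05s0094g00330 (chr5:24279029-24287067), for a class IV chitinase, events at 1464, 2845 and 6052 bp had 87.0, 67.0 and 54.0 reads and carried tgncgtgt, gattGCGTGt and atgACGTGt. This was the only one of the 4 genes with a word at every event, and its last event had a significance of 2.43.

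Beta-amylase 4, VIT_15s0046g02640 (chr15:19389359-19399836), a member of the starch-degrading enzyme family, had events at 3754, 4103 and 5678 bp with 139, 82.3 and 81.0 reads. The 1,3-beta-glucan synthase gene VIT_12s0028g00400 (chr12:1014462-1078999), for an enzyme that makes callose, had events at 8.13, 18.4 and 22.5 kb with 79.0, 71.0 and 99.0 reads. Neither gene had a k-mer at any of its deep events. None of the 4 genes had a listed event outside this class.

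**Figure D4:**
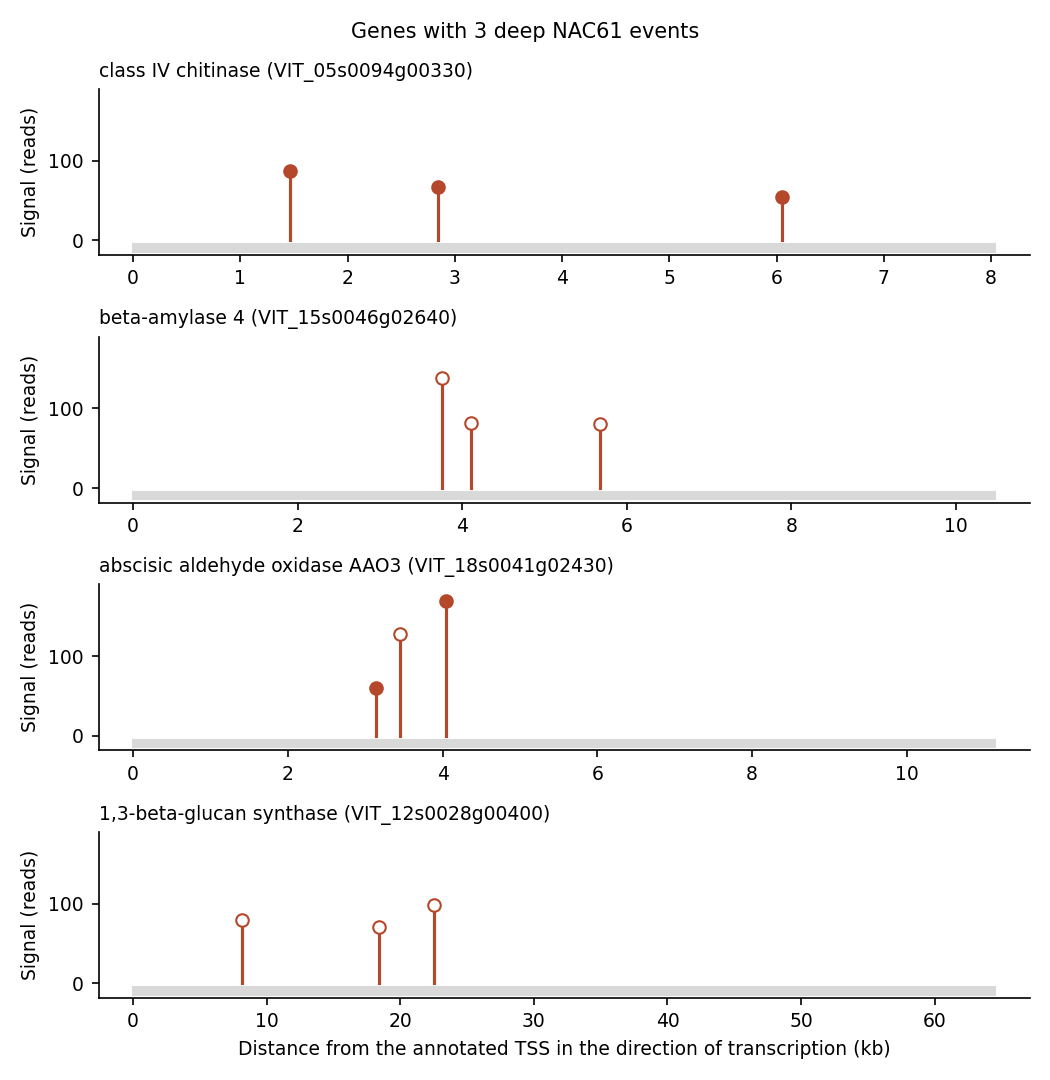
Deep events in the 4 genes with 3 of them, drawn by distance from the TSS in kb (x axis) with the signal in reads (y axis), the grey bar marking the annotated gene. Filled points have a k-mer and open points none, so every event of the chitinase gene is filled and every event of the beta-amylase 4 and 1,3-beta-glucan synthase genes is open.

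Pairs of deep events differed in spacing. In Crinkly4 the event of 183 reads stood 336 bp from one of 91.9 reads that carried tgACGTGtt, and in RGH1 the event of 184 reads stood 460 bp from one of 72.9 reads. In ClpX1, 2 events 326 bp apart, 12.8 and 13.1 kb from the TSS, had 88.9 and 176 reads and significances of 21.2 and 36.5. In VIT_06s0004g03130 for auxin response factor 4, in contrast, the 2 events stood 6016 bp apart with 117 and 81.0 reads. Ammonium transporter 2, VIT_14s0030g02160, had a word at both events, atgACGTG at 60.0 reads and atgGCGTG at 78.0 reads.

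Genes were grouped by the words of their annotations, and each group is given by how many of its listed events were deep, beside 22.3% over all listed events. Listed annotations stop at the letter D, so groups can lack members annotated under later letters. Of the 67 listed events at ABC transporters, pumps that use ATP to move metabolites and hormones, 28 were deep (41.8%, 30.7 to 53.7). Ion and metabolite channels and carriers had 28 deep of 95 events (29.5%, 21.2 to 39.3). Listed ABC transporter genes had a median length of 7.12 kb and carrier genes one of 3.53 kb, against 3.77 kb over all listed genes, and the part of length in these shares was not tested.

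**Figure D5:**
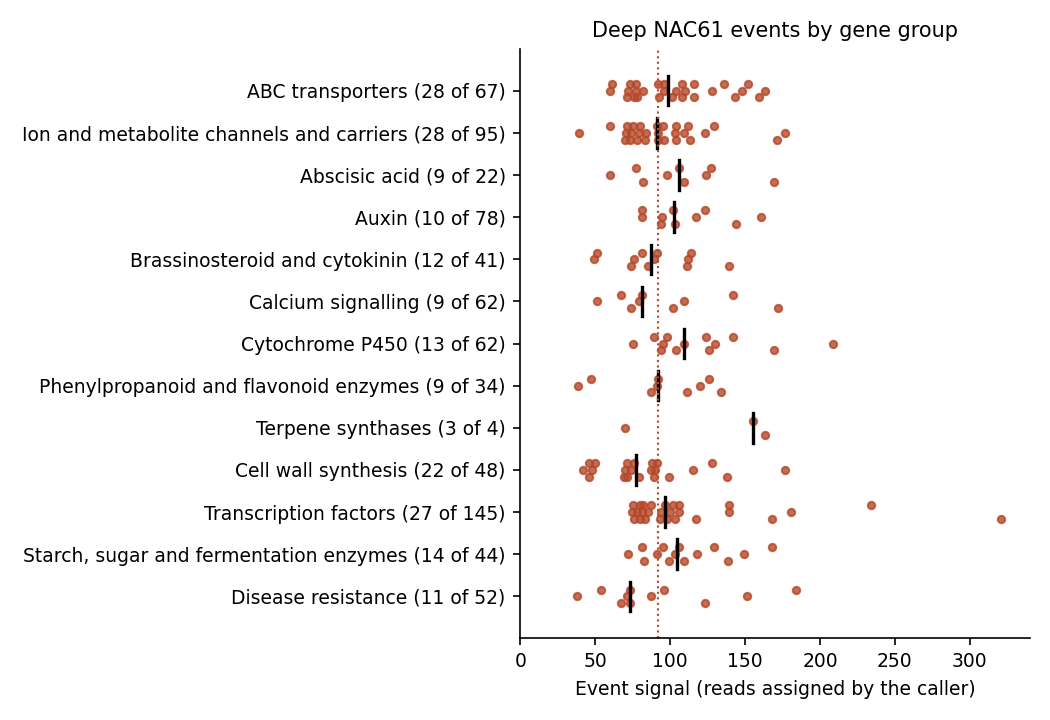
Signal in reads (x axis) of each deep event in 13 gene groups, with the number of deep events of the listed events of the group in brackets. Black bars are group medians and the dotted line is the median of all deep events, 92.0 reads. The 2 highest points, in transcription factors, are both from bZIP15.

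The highest ABC transporter signals were 163 reads in ABCA3 (VIT_17s0000g05850, significance 32.4) and 159 reads in ABCB24 (VIT_14s0066g00550, 31.5). ABCG20 (VIT_06s0004g02490) had 152 reads, ABCB1 (VIT_01s0137g00350) 148 and ABCC20 (VIT_10s0003g04470) 143, the last at 30.6 kb from the TSS of a gene of 56.4 kb. None of these 5 had a k-mer, and 6 of the 28 events of the group had one, beside 134 of all 419 deep events (32.0%). The median gene length over the deep events of the group was 12.9 kb. In genes longer than 10 kb, 35 of all 185 deep events had a k-mer (18.9%). Among carriers, ALMT9 and ECA1 led. They were followed by the malate transporter ALMT1 (VIT_02s0012g01030, 129 reads, gttGCGTG), an amino acid permease (VIT_03s0038g03900, 123 reads) and a mitochondrial carrier (VIT_12s0028g00450, 113 reads).

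Genes of ABA metabolism and response had 9 deep events of 22 (40.9%, 23.3 to 61.3), in 7 genes, and no listed event up to 1 kb upstream of a TSS, where 15.2% of all listed events lay. After the AAO3 events, the strongest were in 2 genes for ABA 8'-hydroxylases of the CYP707A2 type, which start the breakdown of ABA. VIT_07s0031g00690 had 124 reads with attGCGTA at 4102 bp, and VIT_18s0041g02390 had 109 reads at 6376 bp without a word. Genes for the last step of synthesis and for the first step of breakdown thus both held deep events. The hydroxylase genes are also counted among the cytochrome P450 genes below. The bZIP factors of ABA signalling followed, with 106 reads at AREB2 (VIT_18s0001g10450, tgACGTGtaa), 98.0 at ABF2 (VIT_19s0015g01020) and 82.0 at ABF4 (VIT_03s0063g00310, taGCGTGt).

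Auxin genes had 10 deep events of 78 (12.8%, 7.12 to 22.0), the lowest share of the groups. Of these, 4 lay in genes for auxin-independent growth promoters, which the word auxin also matched, and without the 14 listed events of that name the count was 6 of 64 (9.38%, 4.37 to 19.0). The strongest were in the efflux carrier PIN3 (VIT_08s0040g01230, 161 reads, tttGCGTGtaa), an auxin-independent growth promoter (VIT_05s0029g01340, 144 reads), the influx carrier AUX1 (VIT_08s0007g02030, 123 reads, ataGCGTGt), auxin response factor 4 and ARF17 (VIT_18s0001g04180, 103 reads). Both of the transport genes carried a GCGTG word. Brassinosteroid and cytokinin genes had 12 of 41 (29.3%, 17.6 to 44.5). Their highest signals were at the response regulator ARR18 (VIT_11s0206g00060, 139 reads), the phosphatase BSL3 (VIT_13s0073g00440, 114 reads) and 2 cytokinin dehydrogenases, which degrade cytokinins (VIT_04s0008g01880, 112 reads, and VIT_18s0001g13200, 112 reads). The receptor gene BRI1 (VIT_07s0031g01850) had 91.0 reads with taGCGTGt. Calcium signalling genes had 9 of 62 (14.5%, 7.83 to 25.3), led by IQD6, a calmodulin-binding protein (VIT_13s0019g03890, 142 reads) and a calmodulin-binding heat shock protein (VIT_15s0046g02650, 109 reads). The calcium-dependent protein kinase CPK10 (VIT_08s0105g00390, 106 reads), whose annotation is spelled differently, was not matched and is not in this count.

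Cytochrome P450 genes had 13 deep events of 62 (21.0%, 12.7 to 32.6). A significance of 5 was reached by 12 of the 13, beside 291 of all 419 deep events (69.5%). After CYP704A2 and CYP86A2, the strongest were CYP86A8 (VIT_15s0046g02380, 142 reads, tgACGTGt), CYP82A3 (VIT_18s0001g11560, 130 reads) and CYP71E (VIT_06s0004g06480, 126 reads, ggttGCGTG). Enzymes of the phenylpropanoid and flavonoid pathways had 9 of 34 (26.5%, 14.6 to 43.1). Among them were a dihydroflavonol 4-reductase (VIT_15s0046g01170, 134 reads) and chalcone synthase 3, the entry enzyme of flavonoid synthesis (VIT_05s0136g00260, 126 reads, gcttGCGTGtt). A chalcone reductase (VIT_05s0077g02150, 120 reads) and 2 cinnamoyl-CoA reductases of the lignin branch (VIT_02s0012g01570, 111 reads, and VIT_18s0122g00640, 92.0 reads) came next. Of the 4 listed events at terpene synthases, 3 were deep, in germacrene D synthases TPS24 (VIT_19s0014g02590, 163 reads), TPS27 (VIT_19s0014g04900, 155 reads) and TPS07 (VIT_18s0001g04280, 70.0 reads, tttGCGTG). Members of such gene families can be near-identical, and reads that fit several copies may have been misplaced or removed by the mapping filter, so these are uncertain.

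Cell wall genes had the highest share among groups of at least 5 listed events, 22 deep of 48 (45.8%, 32.6 to 59.7). Their median signal, however, was 77.5 reads, against 92.0 over all deep events. Of the 22, 10 reached a significance of 5, beside 69.5% of all deep events. In the category Cell Wall Metabolism of the study's dataset, 14 of 44 were deep (31.8%, 20 to 46.6), an interval that includes 22.3%. The strongest stood in the beta-1,3-glucanase (177 reads), CSLG3 (138 reads) and the cellulose synthase CESA1 (VIT_04s0008g05220, 128 reads). The COBRA protein, which guides cellulose deposition (VIT_14s0083g01150), had 115 reads with tgGCGTGt, and the 1,3-beta-glucan synthase 99.0. Several of these events lay in neighbouring copies of CSLB04 and CSLG3, to which the same limit on similar copies applies. Genes of starch, sugar and fermentation had 14 of 44 (31.8%, 20 to 46.6). They were led by alcohol dehydrogenase 3 (VIT_18s0001g15450, 168 reads, tGCGTGtaa), whose event stood close to the gene end at 2912 bp in a gene of 2.93 kb. A trehalose-phosphate synthase (VIT_19s0014g00300, 149 reads), beta-amylase 4 (139 reads), an aldehyde dehydrogenase (VIT_17s0000g05800, 129 reads) and an alpha-glucosidase (VIT_02s0087g00030, 118 reads) followed.

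Transcription factor genes had 27 deep events of 145 (18.6%, 13.1 to 25.7), with signals of 74.5 reads or more. The group was built from annotation words and leaves out regulators such as BZR1. Families annotated under letters after D are absent, so it does not stand for all transcription factors. In the functional category Transcription Factor Activity of the study's dataset, within the same listed events, 19 of 145 events were deep (13.1%, 8.55 to 19.6), with signals of 67.0 reads or more. After bZIP15 and BLH2, the strongest were a bHLH factor (VIT_07s0151g00450, 168 reads), ARR18 (139 reads) and bZIP04 (VIT_02s0012g02250, 139 reads, tGCGTGt). Disease resistance genes had 11 of 52 (21.2%, 12.2 to 34.0) with a median of 73.0 reads. RGH1 led this group, followed by an Avr9/Cf-9 rapidly elicited protein (VIT_01s0011g06140, 151 reads), the resistance protein VIT_03s0017g00610 (123 reads), DND1, a cyclic nucleotide-gated channel in Arabidopsis (VIT_14s0108g01420, 96.0 reads), and the class IV chitinase (87.0 reads). The intervals of most groups included 22.3%. Those that did not were ABC transporters, ABA and cell wall genes and terpene synthases above it, and auxin genes below it. The intervals take events as independent, although AAO3 held 3 of the 9 deep ABA events. The 1,3-beta-glucan synthase gene VIT_12s0028g00400 held 3 of the 22 deep cell wall events. With 14 groups compared without a test, nothing is called particular to a group.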

How the data were processed

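The upstream steps are those given in the methods of the study and in the submitters' processing notes, and the methods do not name fastp. Reads were cleaned with fastp 0.21.0 and aligned with Bowtie2 (listed as 2.0 in the submitters' processing notes) to PN40024 12X.v2. Reads with a low mapping quality were removed, and GEM called events over both HALO-NAC61 replicates against the GST-HALO control on nuclear chromosomes. The control was sequenced less deeply, and reads per library are not part of the list.

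The deposited signal is the number of reads that GEM assigned to an event. It is not whole at 58 deep events, while 26 deep events had another event within 500 bp, and the cause was not tested. The authors' −log10 p-value and −log10 q-value compare an event with the control, and only the q-value was used here. The score that the authors deposited follows the signal up to a ceiling and was not used. Gene coordinates, annotations and k-mers came from a supplementary dataset of the study, of which 1879 events were used. Its folds over the control and expression values were not used.

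Summits were placed relative to the annotated TSS, and shares were given with Wilson, differences with Newcombe and medians with order-statistic intervals (Python 3.11.15, pandas 2.3.3, SciPy 1.17.1), checked on simulated data. No test was run, since the list has no spread between samples. Named were the genes of the 20 highest signals, of 3 deep events, of the 3 farthest events, of k-mer events at a significance (−log10 q-value) of 20 or more, and up to 5 events per gene group. Genes with attGCTTGt, pairs of events, ABF2, ABF4 and BRI1 were chosen after their values were seen. The members, gene groups and comparisons were chosen with earlier results of these data known. Alternatives changed the distance, q-value, summit, unanchored sequence and neighbour limits.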

Additional observations from a re-analysis of the deposited data

How the results depend on the processing

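Of 31 alternatives run for 10 results, 26 kept a share, median or difference within its spread or a count within 1.5 times its value, 4 moved it and 1 reversed it. The number of deep events was 521 with a limit of 500 bp from the TSS, 286 with 2000 bp, 376 and 291 where significance was 3 or more and 5 or more, 409 with interval starts used as summits and 369 without the last 500 bp of the gene. Beyond 2000 bp, 24.8% of deep events had a k-mer. The share with another event was 0.477% within 250 bp and 9.31% within 1000 bp, beside 1.33% and 11.3% of the whole list. Alternatives added after the values were seen concerned gene length. In genes of up to 5 kb, the difference in k-mer share between deep and other listed events turned to 3.30 points. Taking genes longer than 10 kb only moved the difference between the farthest and the nearest deep events to -8.91 points, against -37.5 in all genes, and the cause was not tested. No paired analysis was possible because the list pools both replicates, and for the same reason no replicate could be left out. The depth behind a share is its number of events. The list starts at 37.0 reads and a −log10 q-value near 2, so weaker deep binding was not detectable.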
